A study of Mus musculus with 2 samples.

Results

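The Zfp genes are mouse genes named for the zinc finger proteins they encode, and 159 of them were measured well enough to be described in mature oocytes of aged and young mothers. They were chosen by name and by level: every row of the deposited table was taken whose symbol is Zfp followed by a number and, in some, a letter, and whose counts averaged 20 or more over both pools, and Zfp57 and Zfp36 were left out. The table lists 372 such genes, of which 77 had no count, 136 had counts below that floor and 159 were above it, among 10211 genes of all kinds above the floor and 36227 in the table. The oocytes were at MII, the metaphase arrest of the second meiotic division, and had been ovulated naturally by females of the ICR strain. The aged pool was made from females of 12 months and the young pool from females of 3 months, and each was 1 tube of 18 pooled oocytes, 3 from each of 6 females. No treatment or altered allele is named for either group, and the comparison asks how the mRNA of mature oocytes differed with the mothers' age.

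A classical zinc finger of this kind (C2H2) is a short loop of protein in which a pair of cysteines and a pair of histidines hold a zinc ion, and a row of fingers can read a row of bases in DNA. Many of the proteins also carry a KRAB box, which binds the corepressor Trim28 and through it the methyltransferase Setdb1, and in this way they silence transposable elements and some genes. KRAB zinc finger genes multiplied by local duplication and lie in clusters of related copies. Other Zfp genes share only the name and the finger, and their products act in splicing, on ribosomes, on the spindle or as activators of transcription.

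The aged pool held 18597656 counts and the young pool 19475110, so that 0 counts left room for a level of 0.161 CPM (counts scaled to a total of 1000000) in the aged pool and 0.154 CPM in the young one. With 1 library per age there was no spread between libraries to test against and no p-value was computed. Genes are therefore described by their size of difference, 2-fold, and by 95% exact (Clopper-Pearson) intervals of the ratio, which cover counting error only. All 13 oocyte markers had counts in both pools, with summed levels of 116408 CPM in the aged pool and 210730 CPM in the young one. Gdf9 had the largest part in the difference, with 42795 CPM in the aged and 97099 CPM in the young pool. Dppa3, Nlrp5 and Zp3 had a higher level in the aged pool and the other oocyte markers a lower one. Of 18 cumulus, granulosa and luteal markers 9 had counts in the aged pool and 10 in the young one, with summed levels of 62.1 and 34.0 CPM, and Star, Foxl2, Amh, Amhr2, Inhba and Lhcgr had no count. The higher aged sum came from Cyp19a1 alone: the 11 other counted markers summed to 5.27 CPM in the aged pool and 11.7 CPM in the young pool, and 8 of them were lower in the aged pool. The part of other cells in the differences of Zfp genes was not tested. In pools of whole cells, a change in RNA per oocyte and a change in how many oocytes carry it cannot be told apart.

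More Zfp genes were higher in the aged pool than lower. Of the 159, 61 (38.4%) were higher by 2-fold or more and 7 (4.40%) lower by 2-fold or more after scaling to the library totals, where 27.9% of all 10211 genes above the floor were higher by 2-fold or more and 10.6% lower by 2-fold or more. Their log2 ratios of aged over young had a median of 0.66 and quartiles of 0.09 and 1.46, beside 0.43 for all genes. The median of all genes is itself above 0, so a Zfp gene with a ratio between 0 and 0.43 lies below the median gene when ratios are centred on it. After that centring 42 Zfp genes were higher by 2-fold or more and 11 lower, where 16.0% and 17.3% of all genes were, and the median of the Zfp genes was 0.23. The counting interval lay wholly beyond 2-fold for 39 Zfp genes on the high side and 5 on the low side, against 18.0% and 6.35% of all genes. It lay wholly above equality for 97 Zfp genes and wholly below it for 20, and it spanned equality for 42. The shares of all genes were not computed for this interval count. The ratio itself was above 0 for 127 Zfp genes (79.9%), where it was for 66.4% of all genes. The summed level of all 295 counted Zfp genes was 5437 CPM in the aged pool and 4640 CPM in the young pool, 1.17-fold higher. The 5 genes with the highest mean counts held 42.6% of the counts of the 159 in the aged pool and 49.4% in the young pool.

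**Figure D1:**
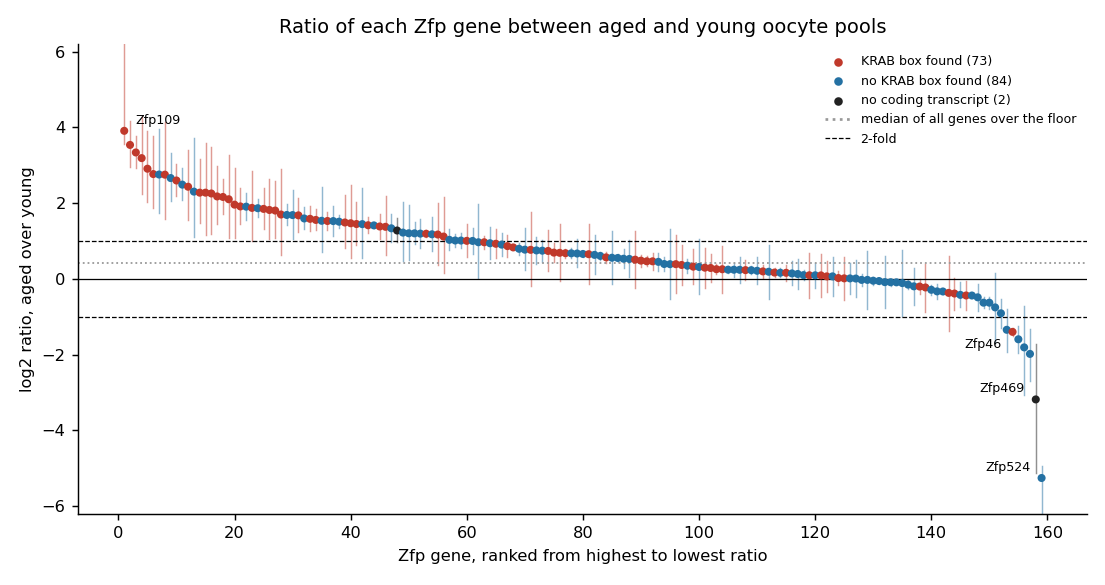
The log2 ratio of aged over young (y axis) is plotted for each of the 159 Zfp genes, ranked from highest to lowest (x axis), with vertical lines for the 95% counting interval and colours for the KRAB box. The 61 points above the upper dashed line are higher by 2-fold or more in the aged pool and the 7 below the lower dashed line lower by 2-fold or more; intervals of genes with 0 counts in a library run off the axis.

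The floor itself shapes these counts. At least 20 counts were recorded in both pools for 131 of the 159 Zfp genes, in the aged pool only for 23 and in the young pool only for 5. A gene that passed the floor through one library had to differ, and 21 of the 23 were higher by 2-fold or more and 3 of the 5 lower by 2-fold or more. Among the 131, 40 (30.5%) were higher by 2-fold or more and 4 lower with a median log2 ratio of 0.51, where 24.8% of the 9084 genes of all kinds with 20 counts in both pools were higher and 7.84% lower, with a median of 0.40. The genes just inside the floor were Zfp422 with 33 counts in the aged and 7 in the young pool, Zfp113 with 17 and 23, and Zfp931 with 31 and 10. Just outside it were Zfp93 with 20 counts in the aged and 19 in the young pool, Zfp62 with 34 and 3, and Zfp398 with 22 and 14. Among the 136 counted Zfp genes below the floor, the level was higher in the aged pool for 87 and higher in the young pool for 49, and together they had 916 counts in the aged and 609 in the young pool. The shares of all genes below the floor were not computed.

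**Figure D2:**
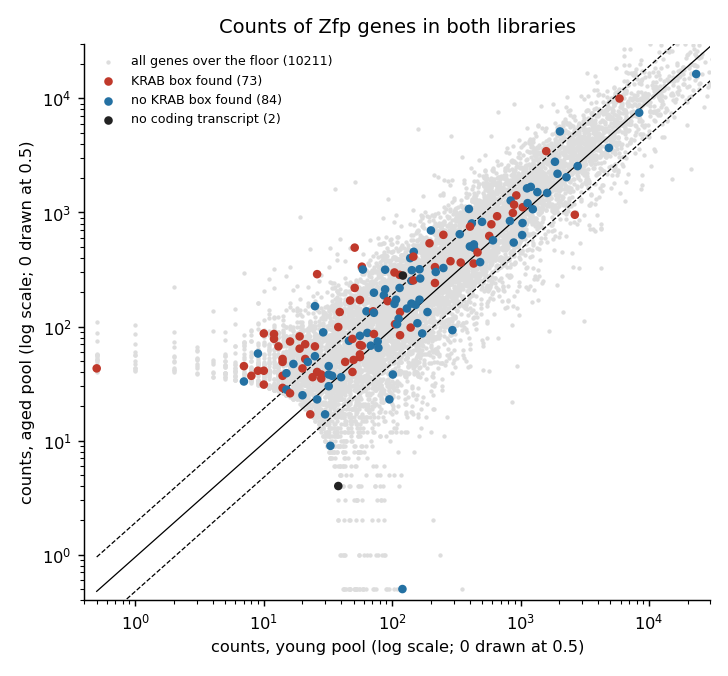
Counts of each Zfp gene in the aged pool (y axis) and the young pool (x axis), both on log scales, over all 10211 genes above the floor in grey; the solid line marks equal levels after scaling to the library totals and the dashed lines 2-fold. Zfp genes with few counts spread widely and mostly upwards, and the 8 genes with the most counts lie within the dashed lines, apart from Zfp280b and Zfp60 above them.

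The Zfp gene with the highest ratio was Zfp109, with 43 counts in the aged pool and 0 in the young one. Its level was 15.0-fold higher when 3 counts are set in place of 0, and the near end of its counting interval was 11.7-fold. Zfp846 (ENSMUSG00000058192, chromosome 9) had 288 counts in the aged pool and 26 in the young pool, 11.6-fold higher with an interval of 7.75 to 18.1. Zfp983 (ENSMUSG00000035868, chromosome 17) had 492 counts in the aged pool and 51 in the young pool, 10.1-fold higher with an interval of 7.56 to 13.8. These last genes had counts in both pools, and their intervals lie well beyond 2-fold. Next came Zfp738 with 87 counts in the aged and 10 in the young pool, Zfp729b with 86 and 12, Zfp689 with 78 and 12, Zfp384 with 58 and 9, and Zfp612 with 45 and 7, at ratios of 9.11, 7.50, 6.81, 6.75 and 6.73. All but Zfp384 among these 8 carry a KRAB box, and Zfp384 encodes CIZ, a transcription factor of the nuclear matrix. None but Zfp846 and Zfp983 reached 20 counts in the young pool.

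At the other end stood Zfp524, with 0 counts in the aged pool and 120 in the young one. Its level was 38.2-fold lower when 3 counts are set in place of 0, the near end of its interval being 30.6-fold, and its human counterpart encodes a protein that binds telomeric DNA. Zfp469, whose human counterpart is mutated in brittle cornea syndrome, had 4 counts in the aged pool and 38 in the young pool, 9.07-fold lower. Zfp691 had 23 counts in the aged pool and 95 in the young pool, 3.94-fold lower, and Zfp217, which works with the corepressor CoREST, had 9 and 33, 3.50-fold lower. Zfp628 had 93 counts in the aged pool and 294 in the young pool, 3.02-fold lower with an interval of 2.38 to 3.85. Zfp46 (ENSMUSG00000051351, chromosome 4) had the most counts of the 7, with 955 in the aged pool and 2637 in the young pool, 2.64-fold lower with an interval of 2.45 to 2.84. It is also the KRAB gene with the lowest ratio, and the other six have no KRAB box or no annotated coding transcript. Zfp710, with 38 counts in the aged and 101 in the young pool, was 2.54-fold lower, and the next in order, Zfp687 with 87 and 171, stayed within 2-fold. All 7 were still lower by 2-fold or more under each other scaling, each other treatment of 0 counts and the correction for transcript length and GC content.

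The Zfp gene with the most counts was Zfp513 (ENSMUSG00000043059, chromosome 5), whose human counterpart is mutated in a form of retinitis pigmentosa. It had 16365 counts in the aged pool and 23232 in the young pool, or 880 and 1193 CPM, 1.36-fold lower with an interval of 1.33 to 1.38. Per kilobase of transcript its level was 395 CPM in the aged and 535 CPM in the young pool, and it was 129 and 72.6 for Zfp655 and 98.5 and 105 for Zfp664. Zfp655, a KRAB gene whose product binds the signalling protein Vav, had 9982 counts in the aged pool and 5878 in the young pool, 1.78-fold higher. Zfp664 had 7499 counts in the aged pool and 8363 in the young pool, 1.06-fold lower. Zfp280b was the most counted gene past 2-fold, with 5135 counts in the aged pool and 2021 in the young pool, 2.66-fold higher with an interval of 2.53 to 2.80. Zfp60, a KRAB gene, had 3445 counts in the aged pool and 1580 in the young pool, 2.28-fold higher. The remaining genes of the 8 with the most counts stayed within 2-fold: Zfp598 had 3684 counts in the aged and 4857 in the young pool, Zfp706 had 2549 and 2776, and Zfp750, a factor of epidermal differentiation, had 2783 and 1847. Of the 34 Zfp genes with mean counts of 500 or more, 4 were higher by 2-fold or more and 1 lower with a median log2 ratio of 0.24, where 23.7% of all 3332 such genes were higher and 5.58% lower, with a median of 0.39. Of the 57 with 100 to 500 counts 25 were higher and 1 lower, with a median of 0.87, where 27.8% and 9.17% of all such genes were higher and lower. Of the 68 with 20 to 100 counts 32 were higher and 5 lower, with a median of 0.77, where the shares of all such genes were 31.9% and 16.7%.

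A KRAB box was found in 73 of the 159 Zfp genes and not in 84, and the other two have no coding transcript in the annotation. Of the KRAB genes 36 (49.3%) were higher by 2-fold or more in the aged pool and 1 lower by 2-fold or more, with a median log2 ratio of 0.97. Of the genes without a KRAB box 24 (28.6%) were higher by 2-fold or more and 5 lower, with a median of 0.39, which is −0.04 relative to the median gene. Over all genes above the floor these shares are 27.9% higher and 10.6% lower, so the share of higher genes without the box was near that of all genes. The KRAB genes had fewer counts, with a median mean count of 79.0 against 163.5, and their transcripts had a lower GC content, with medians of 41.5% and 51.1%. With 20 counts required in both pools, 19 of 54 KRAB genes (35.2%) and 20 of 76 genes without the box (26.3%) were higher by 2-fold or more, with medians of 0.66 and 0.37, where 24.8% of all such genes were higher. Among all Zfp genes with 20 counts in the young pool, whatever their aged count, 19 of 59 KRAB genes were higher and 4 were lower, where 22.7% and 13.9% of all such genes were. The number of fingers ranged up to 32 per protein. None of 8 Zfp genes without a match to the finger pattern was 2-fold or more apart, 11 of 34 with 1 to 4 fingers were higher and 1 lower, 15 of 42 with 5 to 9 were higher and 2 lower, and 34 of 73 with 10 or more were higher and 3 lower. The medians of these classes were 0.31, 0.53, 0.68 and 0.87, and −0.016, 0.13, 0.015 and 0.22 when ratios were corrected for transcript length and GC content. Spearman's rho with the number of fingers was 0.16 across 157 genes, 0.08 within the KRAB genes and −0.04 within the genes without the box.

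**Figure D3:**
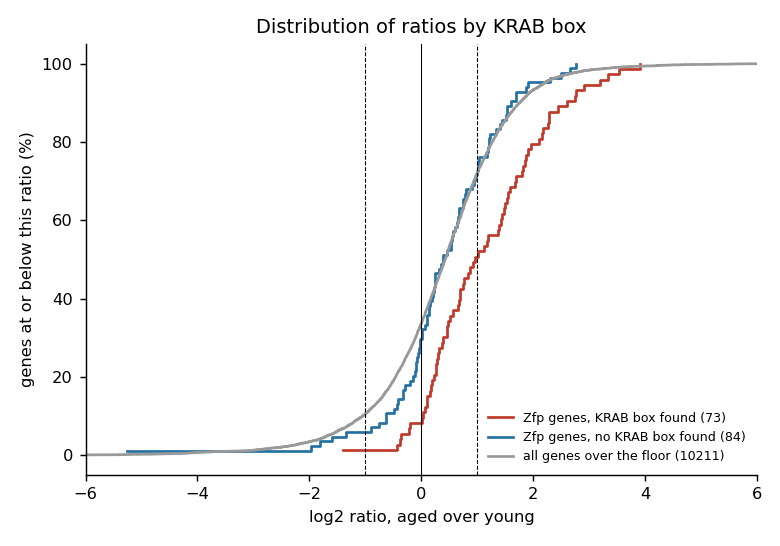
The percentage of genes (y axis) at or below each log2 ratio of aged over young (x axis) is drawn for the 73 Zfp genes with a KRAB box, the 84 without one and all 10211 genes above the floor. The curve of the KRAB genes lies to the right of that of all genes, with medians of 0.97 and 0.43, and the curve of the genes without the box, with a median of 0.39, runs close to that of all genes.

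The ratio went with the base composition of the transcripts, in Zfp genes as in all genes. Spearman's rho between the log2 ratio and the GC content of the longest transcript was −0.51 across the 159 Zfp genes and −0.40 across 9902 genes of all kinds. It was −0.38 within the 73 KRAB genes and −0.43 within the 84 genes without the box, and all these genes share the same 2 libraries. Below a GC content of 45%, 41 of 72 Zfp genes (56.9%) were higher by 2-fold or more and none lower by 2-fold or more, with a median log2 ratio of 1.24. Of all 2375 such genes 46.6% were higher and 3.24% lower, with a median of 0.93. From 45% to 50%, 9 of 28 (32.1%) were higher and none lower, where 32.3% of all genes were higher and 6.09% lower. At 50% and above, 11 of 59 Zfp genes (18.6%) were higher and all 7 lower ones were found, with a median of 0.17, where 16.2% of all 4803 such genes were higher and 16.5% lower, with a median of 0.06. Among genes below 45% with 20 counts in both pools, 16 of 36 KRAB genes (44.4%), 9 of 19 Zfp genes without the box (47.4%) and 42.9% of all 2119 genes were higher by 2-fold or more, with medians of 0.85, 0.90 and 0.86.

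After the median ratio of genes with similar transcript length and GC content (the same bin of both) was subtracted from each gene, 28 Zfp genes were higher by 2-fold or more and 12 lower, where 13.6% and 14.9% of all genes were, and their median was 0.13. The KRAB genes then had a median of 0.22, with 17 higher and 3 lower, and the genes without the box a median of 0.11, with 11 higher and 8 lower. Of the 61 Zfp genes that were higher by 2-fold or more before the correction, 27 were so after it. These included Zfp109 at a corrected log2 ratio of 3.40, Zfp384 at 2.64, Zfp846 at 2.60, Zfp983 at 2.37 and Zfp689 at 2.37. Among the 131 genes with 20 counts in both pools, the corrected median was 0.00 with 13 genes (9.92%) higher and 7 lower. Of all 8833 such genes 10.2% were higher and 1107 were lower, so the share of higher Zfp genes was near that of all genes.

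**Figure D4:**
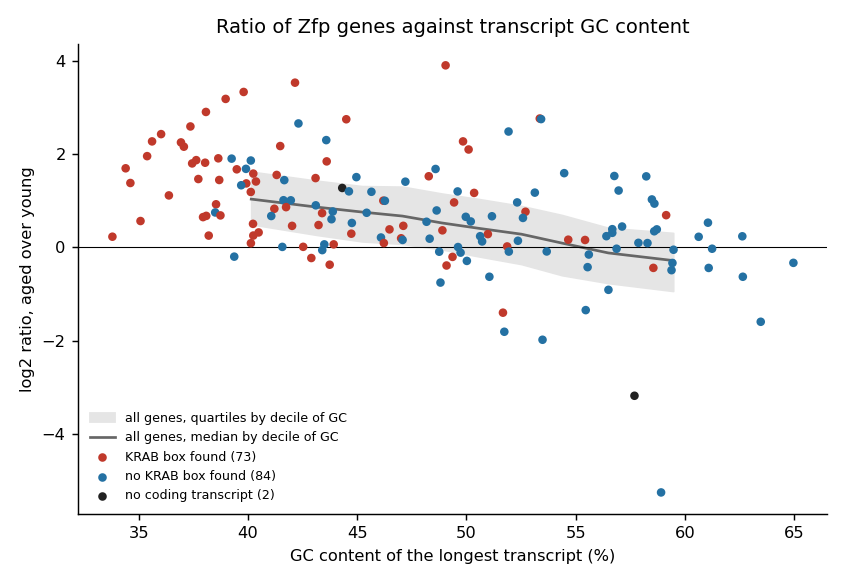
The log2 ratio of aged over young (y axis) of each Zfp gene against the GC content of its longest transcript in percent (x axis), over the median and quartiles of all genes by decile of GC content. KRAB genes crowd at the left, where the grey median is also high, and the Zfp genes lower by 2-fold or more all lie at 50% or above. Of all genes, 16.5% were lower by 2-fold or more at 50% and above, 6.09% from 45% to 50% and 3.24% below 45%.

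Zfp genes of chromosome 17 had the highest median among the 7 chromosomes with at least 10 of them. Of 21 genes there 13 (61.9%) were higher by 2-fold or more and none lower, with a median log2 ratio of 1.47. Of all 455 genes of that chromosome 21.5% were higher and 13.0% lower, with a median of 0.18. Of the 13, 6 had fewer than 20 counts in the young pool and passed the floor through the aged pool alone. With 20 counts in both pools 7 of 15 Zfp genes of chromosome 17 (46.7%) were higher, with a median of 0.93, where 17.3% of all 399 such genes of the chromosome were, with a median of 0.16. The medians of the Zfp genes on chromosomes 2, 4, 5, 7, 8 and 11 were 0.35, 0.95, 0.04, 0.46, 0.65 and 0.62. On chromosome 7, which holds 37 of them, 12 were higher and 3 lower, where 23.2% and 13.4% of all its genes were, and on chromosome 4, with 10, 5 were higher and 2 lower, where 26.6% and 10.4% were. The median GC content of the Zfp transcripts was 38.7% on chromosome 17 and 49.1% on chromosome 7, where it was 52.7% for all genes of each of these chromosomes. After the correction for length and GC content the median ratio of the 21 genes of chromosome 17 was 0.65.

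**Figure D5:**
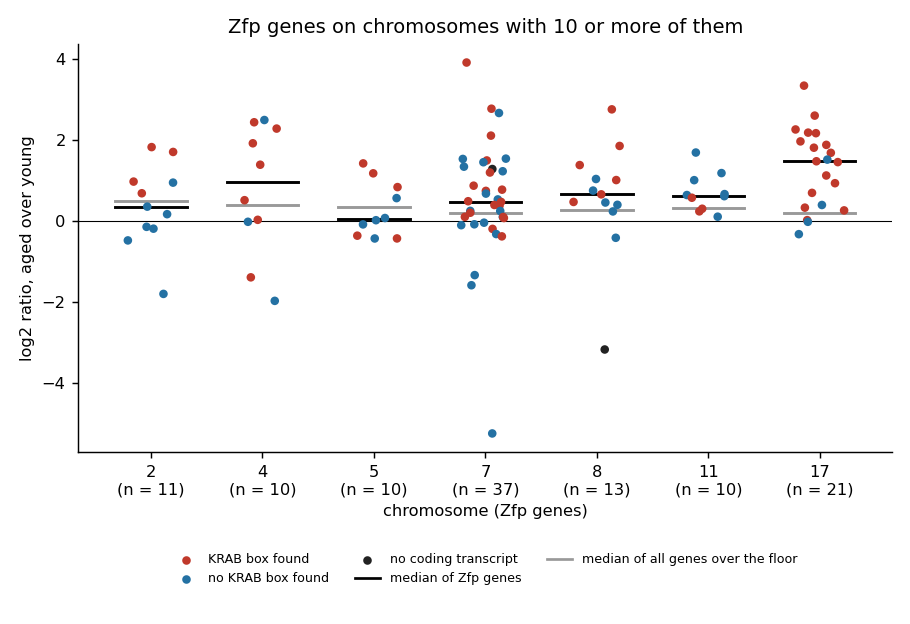
The log2 ratio of aged over young (y axis) for Zfp genes on each chromosome with at least 10 of them (x axis), with black bars for their medians and grey bars for the medians of all genes of the chromosome above the floor. On chromosome 17 the Zfp median of 1.47 stands above the median of 0.18 of all its genes. No Zfp gene there was 2-fold lower, where 13.0% of all its genes were.

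In the order of genes along the chromosomes, 67 of the 159 lay in clusters of at least 4 finger genes, and 35 of these (52.2%) were higher by 2-fold or more and 2 lower, with a median of 1.12. Of the 92 outside such clusters 26 (28.3%) were higher and 5 lower, with a median of 0.39, close to the 27.9% of all genes. The median GC content was 42.0% inside the clusters and 49.6% outside, and after the correction for length and GC content the medians of the ratio were 0.35 and 0.03. With 20 counts in both pools 20 of 49 inside (40.8%) and 20 of 82 outside (24.4%) were higher, where 24.8% of all such genes were. The cluster with the most measured Zfp genes lies on chromosome 17 and holds 22 finger genes, of which 11 were above the floor, all with a KRAB box. All 11 had a higher level in the aged pool and 8 were higher by 2-fold or more, with a median of 1.47, or 0.53 after the correction for length and GC content. The floor fixed part of this, since 4 of the 8, Zfp946, Zfp758, Zfp40 and Zfp820, had 9 to 14 counts in the young pool, and of the 7 genes with 20 counts in both pools 4 were higher. Of all genes with a GC content below 45%, 46.6% were higher, and 42.9% of those with 20 counts in both pools. Besides Zfp983, the genes there were Zfp942 with 335 counts in the aged and 58 in the young pool, Zfp943 with 218 and 51, Zfp944 with 99 and 38, Zfp51 with 167 and 92, Zfp758 with 52 and 14, and Zfp946 with 41 and 9. The 4 others, Zfp40, Zfp820, Zfp229 and Zfp760, had 29 to 49 counts in the aged and 14 to 43 in the young pool. Zfp229 and Zfp760 were the members of the cluster whose counting interval reached equality.

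A cluster of 19 finger genes on chromosome 4 had 5 genes above the floor, all with a KRAB box, and 4 of them were higher by 2-fold or more. Of all genes with a GC content below 45%, as these have, 46.6% were higher. The floor fixed part of this too, since Zfp985 and Zfp990 had fewer than 20 counts in the young pool. Of the 3 genes with 20 counts in both pools 2 were higher, where 42.9% of all such genes below a GC content of 45% were. None of the 3 was higher by 2-fold or more after the correction for length and GC content. Zfp979 had 284 counts in the aged and 114 in the young pool, Zfp982 had 169 and 47, Zfp985 had 67 and 13, Zfp990 had 37 and 8, and Zfp933, the one within 2-fold, had 38 and 28. On chromosome 7 the clusters with at least 5 genes above the floor were those around Zfp109 and around Zfp568. Of their genes 1 of 6 and 2 of 5 were higher by 2-fold or more, where 23.2% of all genes of the chromosome were. The smaller clusters of chromosome 7 are not described here. In the one around Zfp109, Zfp235 had 357 counts in the aged and 430 in the young pool, Zfp108 had 84 and 115, Zfp111 had 78 and 49, Zfp61 had 26 and 16 and Zfp180 had 23 and 26, none of them 2-fold apart. In the one around Zfp568, Zfp420 had 151 counts in the aged and 25 in the young pool and Zfp260 had 39 and 15, while Zfp568, Zfp74 and Zfp84 stayed within 2-fold. The median GC content was 37.7% in the cluster of chromosome 17 and 36.0% in that of chromosome 4. It was 49.2% and 43.9% in those around Zfp109 and Zfp568.

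The coding sequence of 1 finger shows what fingers of different Zfp genes share and how their base composition differs. Each line gives 84 bases from the longest annotated coding sequence, for a finger followed by the common linker, from the first cysteine codon through the linker to the start of the next finger unit, 5′ to 3′. It is finger 2 of the protein in Zfp983 and Zfp946, finger 3 in Zfp46 and finger 1 in the others. Capitals mark the codons of the cysteines and histidines that hold the zinc. The sequences are those of GENCODE release M21 on GRCm38. The first 5 genes belong to the cluster on chromosome 17, Zfp846 lies on chromosome 9 and was the highest gene with counts in both pools, and Zfp691 and Zfp46 lie on chromosome 4 and were lower by 2-fold or more.
Zfp983: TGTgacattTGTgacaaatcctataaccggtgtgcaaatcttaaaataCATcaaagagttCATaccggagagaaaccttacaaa
Zfp942: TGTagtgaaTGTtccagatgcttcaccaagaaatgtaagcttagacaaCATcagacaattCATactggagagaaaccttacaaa
Zfp943: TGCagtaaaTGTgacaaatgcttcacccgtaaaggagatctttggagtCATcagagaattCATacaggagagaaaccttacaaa
Zfp944: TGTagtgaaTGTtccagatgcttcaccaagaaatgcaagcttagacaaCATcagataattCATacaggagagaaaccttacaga
Zfp946: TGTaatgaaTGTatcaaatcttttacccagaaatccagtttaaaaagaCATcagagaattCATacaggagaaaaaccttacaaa
Zfp846: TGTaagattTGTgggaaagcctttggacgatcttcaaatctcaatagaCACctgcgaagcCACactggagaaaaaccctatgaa
Zfp691: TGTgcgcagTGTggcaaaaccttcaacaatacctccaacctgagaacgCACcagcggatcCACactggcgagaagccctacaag
Zfp46: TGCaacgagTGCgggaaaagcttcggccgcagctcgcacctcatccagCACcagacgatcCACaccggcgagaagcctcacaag

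All 8 code for the same frame of a finger, and the codons between differ. The stretches of the 5 genes from chromosome 17 have a GC content of 29.8% to 39.3%, that of Zfp846 has 42.9%, and those of Zfp691 and Zfp46 have 54.8% and 61.9%. In the genes of chromosome 17 the paired histidines are spelled CAT, and in Zfp846, Zfp691 and Zfp46 they are spelled CAC. The stretches of Zfp942 and Zfp944 are identical at 80 of 84 bases (95.2%), the highest of all pairs shown, and the other pairs of the cluster at 64.3% to 77.4%. The stretch of Zfp983 shares 66.7% of its bases with that of Zfp846 of chromosome 9, and 65.5% and 64.3% with those of its neighbours Zfp942 and Zfp944. Fingers at different positions are compared here, so these identities do not measure how related the genes are. The stretches of Zfp983 and Zfp46 are identical at 46 of 84 (54.8%).

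Likeness of this kind bears on how reads are assigned, since a read of a shared stretch may come from either gene. Measured in words of 35 bases, the longest transcript of a Zfp gene shared a median of 2.94% of its words with transcripts of other genes, and 118 of the 159 shared less than 10%. Of these 118, 37 were higher by 2-fold or more and 6 lower, with a median log2 ratio of 0.56. Of all genes less the Zfp genes that shared more, 27.7% were higher and 10.6% lower. Of the 54 KRAB genes among them 20 were higher and 1 lower, with a median of 0.69. Zfp942 shared 11.6% of its words with Zfp944, which shared 14.1% of its own with Zfp942, and their counts are uncertain for that reason. The same holds for Zfp729b, which shared 40.7% with the gene model Gm49345, for Zfp384, which shared 20.2% with Gm11405, and for Zfp524, which shared 46.6% with Gm44973. Over all other genes together, Zfp983 shared 14.2% and Zfp738 25.2%, and in the cluster of chromosome 4 Zfp982, Zfp979, Zfp985 and Zfp990 shared 27.0%, 30.0%, 33.5% and 44.6%. Zfp846, Zfp691 and Zfp46 shared 0.97%, 1.04% and 0.48% with all other genes together, and Zfp612 and Zfp628 shared no word.

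By role, 2 Zfp genes with a known part in cell division were above the floor. For these and the other roles, all of few genes, the shares over all genes are 27.9% higher and 10.6% lower. Zfp207 (ENSMUSG00000017421, chromosome 11) encodes BuGZ, which binds the checkpoint protein Bub3, the partner of the BubR1 protein named in the study's title, and helps microtubules attach to kinetochores. It had 1628 counts in the aged pool and 1120 in the young pool, 1.52-fold higher with an interval of 1.41 to 1.64, which is a log2 ratio of 0.61, or 0.18 relative to the median gene and −0.10 after the correction for length and GC content. Zfp830, needed for cell cycle progression in the early mouse embryo, had 89 counts in the aged pool and 29 in the young pool, 3.21-fold higher with an interval of 2.09 to 5.07.

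Of 6 genes listed for the silencing of retroviruses and the protection of imprints, 2 were above the floor and neither was 2-fold apart. Zfp568, which represses a placental promoter of Igf2, had 1170 counts in the aged pool and 888 in the young pool, and Zfp819, a repressor in germ and pluripotent cells, had 69 and 56. Zfp809, which binds the primer site of murine leukaemia virus, had 5 counts in the aged pool and 0 in the young one, and Zfp445, which protects imprints, had 15 and 1, both below the floor.

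Of 8 genes listed for pluripotency and the early embryo 5 were above the floor, none of them higher by 2-fold or more and 1, Zfp217, lower by 2-fold or more. Zfp217, with 9 counts in the aged and 33 in the young pool, passed the floor through the young pool alone. Its counting interval of 1.64 to 8.32 reached below 2-fold. Zfp706, which promotes exit from self-renewal in mouse embryonic stem cells, had nearly the same level at both ages, with 137 CPM in the aged and 143 CPM in the young pool. Zfp296, a factor of stem and germ cells, did too, with 1483 counts in the aged and 1606 in the young pool. The stem cell regulators Zfp281 and Zfp322a had 252 and 172 counts in the aged pool and 141 and 107 in the young pool, 1.87-fold and 1.68-fold higher.

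Of 8 genes listed as partners of corepressors 6 were above the floor, 1 higher by 2-fold or more and 1 lower. The higher one was Zfp410, an activator of the gene for the NuRD helicase Chd4, with 312 counts in the aged pool and 142 in the young pool, 2.30-fold higher. The lower one was again Zfp217, which passed the floor through the young pool alone. Zfp592 and Zfp687, which bind the chromatin reader Zmynd8, had 2039 and 87 counts in the aged pool and 2270 and 171 in the young pool. Zfp451, a SUMO ligase, had 1273 counts in the aged pool and 835 in the young pool, and Zfp644, which binds the methyltransferases G9a and GLP, had 105 and 109.

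Of 8 genes listed for general transcription 6 were above the floor and 2 higher by 2-fold or more, Zfp384 and Zfp148. Zfp384, with 58 counts in the aged and 9 in the young pool, passed the floor through the aged pool alone. Zfp148, which encodes the factor ZBP-89, had 452 counts in the aged pool and 147 in the young pool, 3.22-fold higher with an interval of 2.67 to 3.91. Zfp91 and Zfp423 had 828 and 504 counts in the aged pool and 500 and 402 in the young pool. Zfp335, an activator in neural progenitors, had 107 counts in the aged pool and 157 in the young pool, and Zfp143, an activator of small nuclear RNA genes, had 88 and 64.

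Of 9 genes listed for roles with RNA and ribosomes 8 were above the floor, 3 of them higher by 2-fold or more and none lower. Zfp638, a nuclear RNA-binding protein, had 696 counts in the aged pool and 200 in the young pool, 3.64-fold higher with an interval of 3.11 to 4.29. Zfp318, which lets B cells read through to the immunoglobulin D exons, had 1074 counts in the aged pool and 395 in the young pool, 2.85-fold higher with an interval of 2.53 to 3.20. Zfp277 had 645 counts in the aged pool and 335 in the young pool, 2.02-fold higher with an interval of 1.76 to 2.31 that reaches below 2-fold. Zfp598, the ubiquitin ligase that marks collided ribosomes, was 1.26-fold lower, and the RNA-binding Zfp385a, with 545 counts in the aged pool and 882 in the young pool, was 1.55-fold lower. Zfp106, also RNA-binding, had 1208 counts in the aged pool and 1131 in the young pool.

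Among the partners through which KRAB proteins silence their targets, 13 of 15 listed genes were above the floor. Of these 3 (23.1%) were higher by 2-fold or more and 1 (7.69%) lower, near the 27.9% and 10.6% of all genes, with a median log2 ratio of 0.05 that is −0.37 relative to the median gene. Trim28, which the KRAB box binds, had 29556 counts in the aged pool and 43519 in the young pool, 1.41-fold lower, and Setdb1 had 188 and 426, 2.16-fold lower. The higher ones were the heterochromatin protein gene Cbx1 with 2661 counts in the aged and 703 in the young pool, the remodeller Atrx with 2795 and 860, and Uhrf1, a reader of hemimethylated DNA, with 2279 and 894. Of 13 subunits of the NuRD corepressor 12 were above the floor, 2 higher by 2-fold or more (Hdac2 and Gatad2b, 3.26-fold and 3.13-fold) and 1 lower (Mta2, with 14 counts in the aged and 48 in the young pool), with a median of 0.54. The NuRD shares of 16.7% and 8.33% rest on 12 genes and stand beside 27.9% and 10.6% of all genes. The ratio was above 0 for 10 of the 12 (83.3%), where it was for 66.4% of all genes, whose median was 0.43.

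Zfp genes can also be set beside other finger families, and these beside the 27.9% of all genes that were higher and the 10.6% that were lower. The median log2 ratio was 0.61 for 30 Zbtb genes, with 10 higher by 2-fold or more and 1 lower, 1.21 for 7 Zkscan genes with 4 higher, 1.01 for 6 Zscan genes with 3 higher, and 0.49 for 8 Klf genes with 2 higher. It was 0.47 for 12 Zc3h genes, whose fingers are of another type, with 4 higher. The RING finger Rnf genes, 57 in all, had 13 higher and 4 lower with a median of 0.19, which is −0.24 relative to the median gene.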

How the data were processed

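RNA of 2 oocyte pools was measured, 1 library per age. Per the labels' protocols, mRNA of 18 oocytes was reverse transcribed with an oligo(dT) adaptor primer, tailed, amplified by PCR without molecular identifiers and sequenced on a SOLiD instrument, so the intervals cover the error of counting and no other. The genome build was mm9, per the submitters' processing notes. The aligner, counting program, use of strand and treatment of reads with several matches are not given in the sources consulted. Values are unnormalized whole-number counts per Ensembl gene, as deposited by the authors; their totals differ between the libraries. The log2 fold changes that the authors deposited, which are young over aged, and their p-values and scores were not used.

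Symbols came from GENCODE mouse release M21 (GRCm38), which matched 85.5% of rows and 93.7% of counted rows. Its build differs from mm9, so positions are not printed and the table's own chromosomes are used. Length and GC content are those of the longest protein-coding transcript or, as for Zfp939 and Zfp469, the longest of any type where none is coding. They were found for 97.0% of genes above the floor and for all 159 Zfp genes. Fingers were counted in the translated longest coding sequence as C, 2 residues, C, 12 residues, H, 3 to 5 residues, H. KRAB boxes were found in any annotated protein with a profile made by pyhmmer 0.12.3 from 188 windows (E-value 0.001), which hit 365 genes. Clusters are runs of at least 4 coding genes with 3 or more fingers each and at most 2 other coding genes between neighbours.

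Ratios are aged over young on the log2 scale, with counts divided by the library totals, with 3 counts set in place of 0 and a floor of 20 counts on the mean. The 95% exact interval comes from the binomial share of the aged pool. The Zfp genes, gene lists and the rule for named genes (8 highest, 8 lowest and 8 most counted members, up to 6 of each role list, the genes beside the floor, Zfp207, and up to 4 of each other list) were chosen with earlier results of these data known. Genes are not replicates, and correlations across them are descriptions. Alternatives were other scalings (TMM factors of 1.15 for the aged and 0.869 for the young pool, from edgeR 4.0.16, used for nothing else), floors, treatment of 0 counts, the bin correction (10 bins of length by 10 of GC content) and shared sequence. Scripts ran in Python 3.11.15 with pandas 2.3.3, numpy 2.4.6 and scipy 1.17.1, and matplotlib 3.10.9 drew the figures.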

Additional observations from a re-analysis of the deposited data

How the results depend on the processing

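No paired analysis was possible because each age has 1 library, and for the same reason no library could be left out in turn. Of the 61 Zfp genes higher by 2-fold or more with library totals, 42 stayed so after centring on the median gene, 44 with TMM factors, 42 with median-of-ratios size factors, 47 with totals less the 100 most abundant genes, 58 with 5 counts added and 27 after the bin correction. All 7 lower ones stayed lower by 2-fold or more in each of these settings. Only Zfp449 changed direction among these 68, to −0.077 after the bin correction, and the cause was not tested. For all Zfp genes the median log2 ratio of 0.66 became 0.23 with centring or size factors, 0.25 with TMM, 0.37 without the 100 genes and 0.13 with the bin correction, and the number lower was 11 with centring, TMM or size factors and 12 with the bin correction, which left 28 higher. Of all genes 16.0% were higher and 17.3% lower with centring or size factors, and 16.4% and 16.9% with TMM. These shares were 19.5% and 14.6% without the 100 genes, 13.6% and 14.9% with the bin correction, and 26.5% and 9.76% with 5 counts added. Floors of 50 and 100 counts left 35 of 114 and 29 of 91 higher, where 26.5% and 25.7% of all genes were. Their medians were 0.50 and 0.55, and at 100, 2 were lower, where 7.39% of all genes were. A floor of 10 counts gave 12 lower, where 12.6% of all genes were. No floor gave 93 higher and 18 lower of 242, where 28.9% and 14.7% of all genes were. Sharing under 10% of words left 37 of 118 higher, where 27.7% were. With 20 counts in both pools 40 of 131 were higher and 4 lower (median 0.51), where 24.8% and 7.84% were. With 20 counts in the young pool 40 of 141 were higher and 11 lower (0.39), where 22.7% and 13.9% were. With 20 in the aged pool 4 were lower, where 6.96% were. The interval left 39 higher, where 18.0% were. These shares of all genes also stand beside the KRAB classes and lists below.

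For KRAB genes the median of 0.97 became 0.54 with centring or size factors, 0.56 with TMM, 0.68 without the 100 genes, 0.68 and 0.76 at floors of 50 and 100, 0.22 with the bin correction, 0.69 with little shared sequence, and 0.66, 0.51 and 1.17 with 20 counts in both, the young and the aged pool. The number higher, 36, became 16 of 45 and 13 of 34 at floors of 50 and 100, 63 of 125 with no floor, 17 with the bin correction, 20 with little shared sequence, and 19 with 20 counts in both or in the young pool. The number lower, 1, became 4 at a floor of 10, 5 with no floor, 3 with the bin correction and 4 with 20 counts in the young pool. For genes without the box the median of 0.39 became −0.035 with centring, −0.037 with size factors, −0.015 with TMM, 0.10 without the 100 genes, 0.11 with the bin correction and 0.28 with 20 counts in the young pool. The number higher, 24, became 13 with centring or size factors, 14 with TMM, 15 without the 100 genes and at a floor of 100, 11 with the bin correction and 12 by the interval. The number lower, 5, became 9 with centring, TMM or size factors, 1 at a floor of 100, 12 with no floor, 8 with the bin correction, and 3 by the interval and with 20 counts in both or in the aged pool.

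For the KRAB corepressor list the number lower, 1, became 2 with centring, TMM or size factors and 3 with the bin correction, and the median of 0.05 became −0.37 with centring or size factors, −0.35 with TMM, −0.23 without the 100 genes and −0.42 with the bin correction. For NuRD the number higher, 2, became 0 with the bin correction, the number lower, 1, became 0 at floors of 50 and 100 and with 20 counts in both or in the aged pool, and the median of 0.54 became 0.11 with centring or size factors, 0.13 with TMM, 0.25 without the 100 genes and 0.37 with the bin correction. The requirements of 20 counts in a library and the alternatives for the KRAB classes were added after the data were seen. Depth limits the genes of few counts: 68 of the 159 Zfp genes had a mean of 20 to 100 counts.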

Other observations

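Some KRAB zinc finger genes carry another name than Zfp. Of 11 above the floor, 6 (54.5%) were higher by 2-fold or more in the aged pool and none lower, with a median log2 ratio of 1.06, where 27.9% and 10.6% of all genes were higher and lower. After the correction for length and GC content 1 of the 11 (9.09%) was higher, beside 13.6% of all genes, with a median of 0.27. All 11 had a higher level in the aged pool, and their counts summed to 6711 in the aged and 2842 in the young pool. Of 84 genes of other names with at least 3 fingers and no KRAB box, 31 (36.9%) were higher by 2-fold or more and 6 lower, with a median of 0.67. After the correction 21 of the 84 were higher and 10 lower, with a median of 0.19, beside 13.6% and 14.9% of all genes. Among the Zfp genes, 17 of 73 with a KRAB box and 11 of 84 without one were higher after it. The families of other names were chosen with the values of the Zfp genes known.

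Below the floor, some Zfp genes had counts almost only in the aged pool. Zfp182 had 27 counts in the aged pool and 2 in the young pool, Zfp974 had 23 and 2, and Zfp28 had 27 and 4. The opposite was seen for Zfp41, with 3 counts in the aged pool and 30 in the young pool, and for Zfp707, with 3 and 24. These genes were picked after their values were seen.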
